A study of Rattus norvegicus with 11 samples.

Results

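The genes described here carry the signal of the interleukin-6 cytokine family in the liver. They are the receptor chains Lifr, Il6r, Il6st and Osmr, the transcription factor Stat3 with its inhibitor Socs3, and the secreted acute phase proteins A2m, Orm1, Hp and Lbp. Their probe sets were those with a single one of these symbols in the array's annotation. Of the 10 genes, 9 had such a probe set, with 14 probe sets in all among 31099 on the array, and Osmr is not analysed here. Each gene was represented by its brightest probe set over the 11 arrays. Of the 9 genes, 8 passed the filter on low signal and Socs3 did not. Those 8 stand among 10714 genes tested.

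The livers of 11 Wistar rats were profiled on Affymetrix arrays, with 1 array per animal. The control group held animals 1, 2 and 9, and the high-dosed group held animals 2, 3, 4, 5, 6, 8, 10 and 11, which received the high dose of mequindox, a quinoxaline N-oxide antibacterial. The animals were labelled as 9 weeks old, except high-dosed animal 8, at 10 weeks. For the dose, the route, the duration of treatment and any vehicle given to controls, the sources used here give nothing. The groups were taken to arrays after metabolite profiles of liver extracts and clinical chemistry had been seen.

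Cytokines of this family bind a receptor chain, such as the IL-6 receptor or the LIF receptor. They then signal through the shared chain gp130, encoded by Il6st. Janus kinases bound to these chains phosphorylate STAT3, which enters the nucleus and, in hepatocytes, drives genes of the acute phase response. SOCS3 is induced by STAT3 and binds gp130 to shut the signal off. In rats A2m is a major acute phase protein that is scarce in the plasma of healthy adults, and Orm1, Hp and Lbp are secreted acute phase proteins too.

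Upstream sequence was taken from RefSeq, assembly GRCr8, for the members whose signal differed most between the groups and that had an entry. Entries were found for 7 of the 10 genes, and A2m, Hp and Lbp had none. The windows hold the 250 bases before the annotated start and are shown for Lifr, which was lower in high-dosed animals by the largest amount, and for Orm1, the secreted protein that was lower. Capitals mark a match to the C/EBP motif TTGCNNAA on either strand.
Lifr, chr2:57963139-57963388, plus strand: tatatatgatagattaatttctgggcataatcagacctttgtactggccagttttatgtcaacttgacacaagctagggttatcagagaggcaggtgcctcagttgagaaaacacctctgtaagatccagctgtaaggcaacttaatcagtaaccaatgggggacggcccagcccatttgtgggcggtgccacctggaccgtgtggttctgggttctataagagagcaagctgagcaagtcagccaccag
Orm1, chr5:81788259-81788508, plus strand: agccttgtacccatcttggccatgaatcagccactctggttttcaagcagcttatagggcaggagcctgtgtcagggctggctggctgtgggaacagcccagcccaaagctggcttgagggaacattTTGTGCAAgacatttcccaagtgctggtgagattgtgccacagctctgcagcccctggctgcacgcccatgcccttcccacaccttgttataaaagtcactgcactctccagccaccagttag

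The match in Orm1 ran from base -123 to base -116 relative to the start, on the minus strand. It was the only match to this motif in the 7 windows, and 9.2% of 33469 rat promoter windows of the same length held one. The STAT motif TTCNNNGAA was found in 0 of the 7 windows and in 7.7% of all windows. The acute phase element CTGGGAA was found in 0 of the 7 and in 9.6% of all windows. All motifs were searched on both strands, and matches to the STAT motif and to CTGGGAA can share bases. Bases outside these windows were not searched, and whether the annotated starts are those used in liver was not tested.

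The members were chosen by a rule written with their differences between high-dosed and control animals known, so these differences are given as a description, without p-values. On the brightest probe sets, Lifr was 4.19-fold lower and Orm1 was 1.22-fold lower in the high-dosed animals, and A2m was 2.89-fold higher. Signals of Il6r, Stat3, Hp and Lbp had log2 differences between -0.05 and 0.00, and that of Il6st was 0.26. In bulk liver RNA, fewer cells of a type and less RNA per cell cannot be told apart. The limma call at an adjusted p below 0.05 was met by 3 of the 8 members tested (1 higher, 2 lower), where 10.6% of all genes were called, 7.91% higher and 2.74% lower. The groups did not overlap for the same 3, Lifr, A2m and Orm1, where this held for 12.1% of all genes, 8.69% higher and 3.37% lower. Nothing is read from these counts, because the contrast was used in choosing the members. The median log2 difference of the 8 was -0.02, and that of all genes tested was 0.02.

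**Figure D1:**
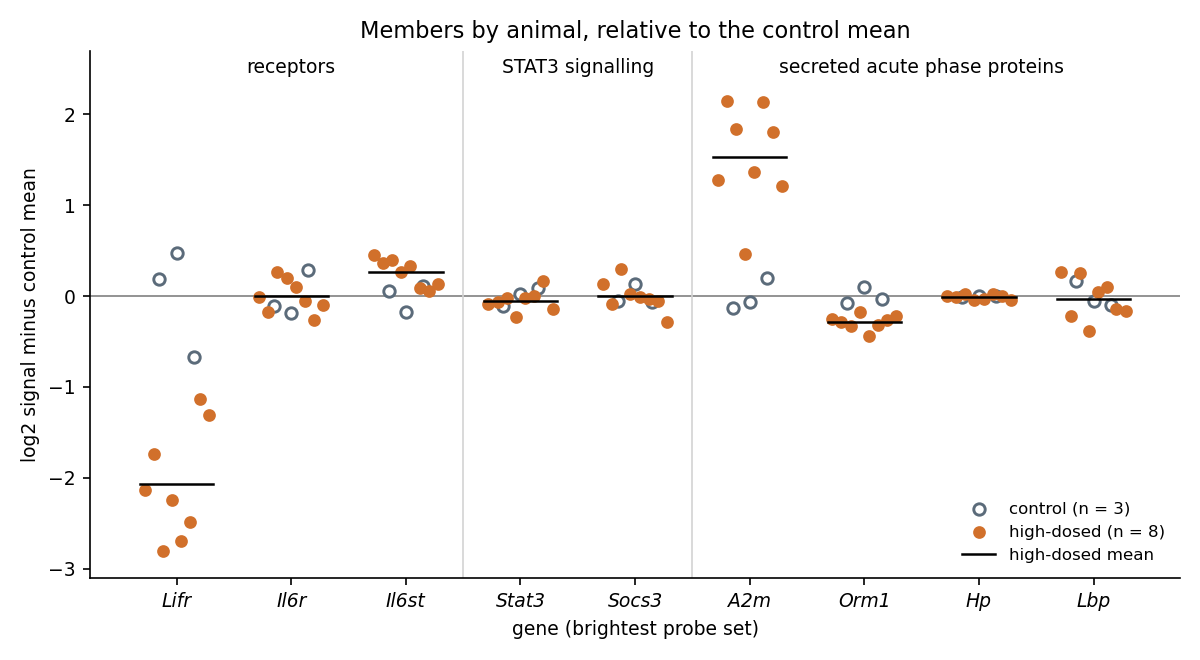
Log2 signal of each animal minus the control mean (vertical axis) for the brightest probe set of each member (horizontal axis), with open circles for the 3 control animals, filled circles for the 8 high-dosed animals and a bar at the high-dosed mean. Lifr and A2m lie far from the control mean in opposite directions, Orm1 lies below it in 8 of 8 high-dosed animals, and the other members stay within 0.5 of it.

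Lifr encodes the LIF receptor, a signalling partner of gp130 that binds leukaemia inhibitory factor, among other cytokines of the family. Its brightest probe set had a deposited intensity of 1588 in control 1, 1944 in control 2 and 851 in control 9. In the high-dosed animals it was 273 in animal 2, 374 in animal 3, 151 in animal 4, 250 in animal 5, 167 in animal 6, 200 in animal 8, 600 in animal 10 and 527 in animal 11. Control 9 was the lowest control and animals 10 and 11 were the highest high-dosed animals, yet the groups did not overlap. The means were 1461 ± 558 (SD, n = 3) and 318 ± 168 (SD, n = 8), and the log2 difference was -2.07 ± 0.35 (SE).

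The other Lifr probe set also had control 9 as the lowest control and animals 10 and 11 as the highest high-dosed animals, while the order of the lower animals differed. Its intensities were 703, 843 and 372 in controls 1, 2 and 9, and in the high-dosed animals ran from 117 in animal 8 through a median of 151 to 280 in animal 10. Again 8 of 8 high-dosed animals lay below the lowest control, and the log2 difference was -1.57 ± 0.22 (SE). Across the 8 high-dosed animals the probe sets had a Pearson r of 0.89, given as a description.

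The Lifr difference was also taken within ranges of the animal numbers, whose meaning the labels do not give. Among numbers 6 and below, with 2 controls and 5 high-dosed animals, the log2 difference was -2.66 ± 0.25 (SE). Among numbers 8 and above, where the only control is control 9, the lowest for Lifr, assumed to vary like the 3 high-dosed animals, it was -0.98 ± 0.52 (SE) and was not called. Whether the difference itself differed between these ranges was not tested. Leaving out 1 array at a time gave values from -2.40 to -1.83.

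**Figure D2:**
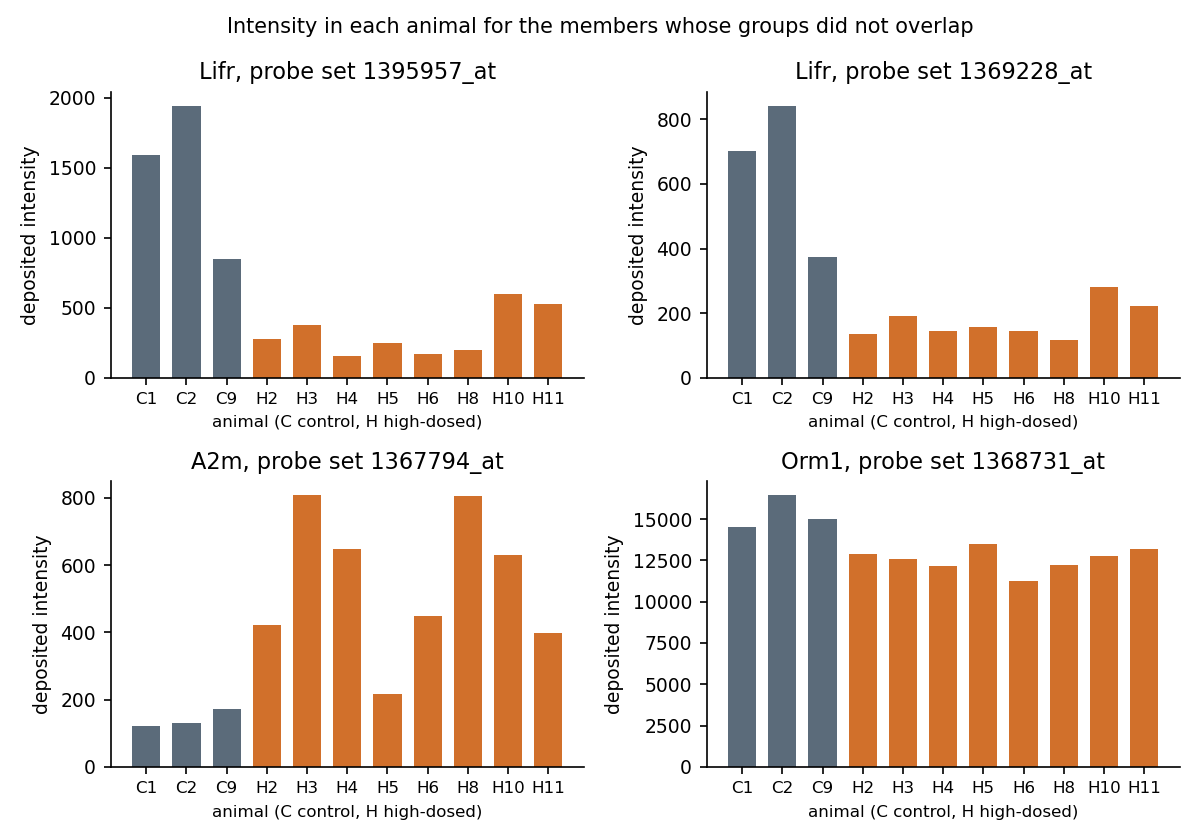
Deposited intensity (vertical axes, from 0) in each animal (horizontal axes; C, control; H, high-dosed; the number is the animal's) for both Lifr probe sets, A2m and Orm1. Control 9 has the lowest Lifr signal of the controls, at 851 and 372, and H10 and H11 have the highest of the high-dosed group, while A2m is low in the 3 controls and uneven among the high-dosed animals.

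Il6r encodes the IL-6 receptor chain, which binds IL-6 before gp130 joins. Its intensity was 2582 in control 1, 2439 in control 2 and 3380 in control 9, and in the high-dosed animals ran from 2296 in animal 10 through a median of 2717 to 3342 in animal 4. Of the high-dosed animals, 3 lay above and 5 below the control mean, and the log2 difference was 0.00 ± 0.12 (SE). It was 0.22 among numbers 6 and below and -0.42 among numbers 8 and above, where control 9 is the only control.

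Il6st, the gene of gp130, had 4 probe sets, and they did not give the same size of difference. The brightest read 3458, 2949 and 3622 in controls 1, 2 and 9 and from 3457 in animal 10 through a median of 4109 to 4574 in animal 2 in the high-dosed group. All 8 high-dosed animals lay above the control mean and 6 lay above the highest control. The log2 difference on that probe set was 0.26 ± 0.09 (SE) and was not called. On the other probe sets it was 0.02 ± 0.20, 0.16 ± 0.15 and 0.15 ± 0.18 (SE), and the mean of the 4 gave 0.15.

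Control 9 was the highest control on all 4 Il6st probe sets, with 4731 against 3506 and 3073 on one of them. On the brightest probe set the log2 difference was 0.42 among numbers 6 and below, and -0.03 among numbers 8 and above. Control 9 thus had the lowest Lifr and the highest Il6r and Il6st signals of the 3 controls. What sets it apart was not tested.

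Stat3, the transcription factor downstream of gp130, differed little on its brightest probe set. That probe set read 1723, 1897 and 1994 in controls 1, 2 and 9 and from 1581 in animal 5 through a median of 1807 to 2088 in animal 10 in the high-dosed group. The groups overlapped, and the log2 difference was -0.05 ± 0.08 (SE). The other Stat3 probe set had a log2 difference of -0.19 ± 0.12 (SE), with 6 of 8 high-dosed animals below the lowest control and animal 2, at 1977, above the highest. Across the 8 high-dosed animals these probe sets had a Pearson r of only 0.11.

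Socs3, the feedback inhibitor of gp130 signalling, was dim. It read 105, 128 and 104 in controls 1, 2 and 9 and from 81.7 in animal 11 through a median of 110 to 152 in animal 4 in the high-dosed group. The array medians ran from 149 to 186.6, and with its mean under the signal filter the gene was left out of the test. The groups overlapped, with means of 113 ± 13.7 (SD, n = 3) and 113 ± 20.4 (SD, n = 8). The log2 difference was 0.00 ± 0.10 (SE).

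**Figure D3:**
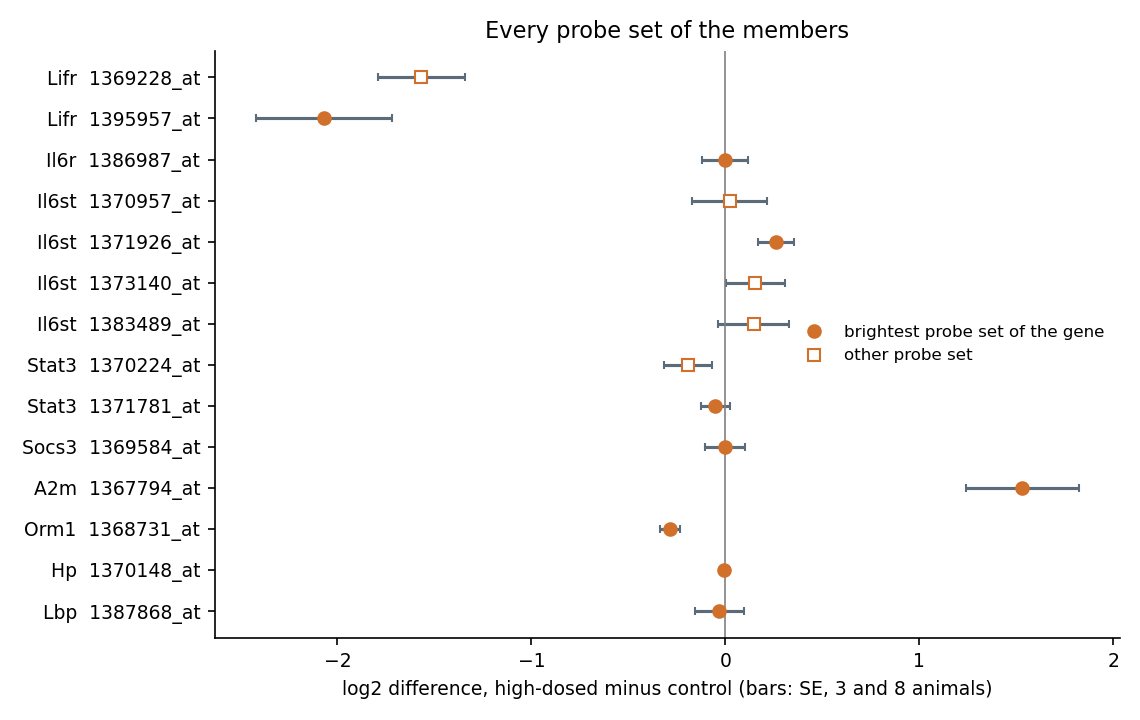
Log2 difference, high-dosed minus control, with its SE (horizontal axis) for all 14 probe sets of the members (vertical axis), with filled circles for the brightest probe set of a gene and open squares for the others. Both Lifr probe sets lie far below 0, at -2.07 and -1.57, the 4 Il6st probe sets spread from 0.02 to 0.26, and Hp has the narrowest error.

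A2m encodes alpha-2-macroglobulin, a broad protease inhibitor of plasma. Its intensity was 123, 132 and 171 in controls 1, 2 and 9. In the high-dosed animals it was 421 in animal 2, 809 in animal 3, 648 in animal 4, 216 in animal 5, 449 in animal 6, 806 in animal 8, 630 in animal 10 and 399 in animal 11. Animals 3 and 8 were highest and animal 5 was lowest, and 8 of 8 lay above the highest control. The means were 142 ± 25.96 (SD, n = 3) and 547 ± 210 (SD, n = 8), a ratio of 3.85.

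On the log2 scale with the pseudocount of 55.26 the A2m difference was 1.53 ± 0.29 (SE), and with a pseudocount of 1 it was 1.84. The control mean of 7.62 on that scale lay close to the filter value of 7.398, so how far control livers stood above background is unknown and the size of the difference is less certain. It was 1.52 among numbers 6 and below and 1.51 among numbers 8 and above.

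Orm1 encodes alpha-1-acid glycoprotein, a plasma carrier of drugs. It was lower in the high-dosed animals, opposite to A2m. Its intensity was 14514, 16469 and 15032 in controls 1, 2 and 9, and in the high-dosed animals was lowest in animal 6, at 11256, with a median of 12671, and highest in animal 5, at 13490. All 8 high-dosed animals lay below the lowest control. The log2 difference was -0.29 ± 0.05 (SE), a small change with a small spread. After each array was centred on its median it was -0.25 and was not called. Orm1 was also bright, and whether this made its change look smaller was not tested.

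Hp encodes haptoglobin, which binds free haemoglobin. It read 25858, 26031 and 26054 in controls 1, 2 and 9 and from 25185 in animal 5 through a median of 25929 to 26410 in animal 8 in the high-dosed group. The groups overlapped and the log2 difference was -0.01 ± 0.02 (SE), which became 0.03 after median centring. The highest intensity on any array ran from 33424 to 34328, and whether Hp was too bright for a change to show was not tested.

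Lbp encodes the lipopolysaccharide-binding protein. It read 3025, 2597 and 2511 in controls 1, 2 and 9 and from 2048 in animal 5 through a median of 2615 to 3252 in animal 2 in the high-dosed group. The high-dosed animals lay on both sides of the control mean, 4 above and 4 below, and the log2 difference was -0.03 ± 0.13 (SE). Among the secreted proteins A2m was thus higher, Orm1 lower, and Hp and Lbp overlapped between the groups.

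**Figure D4:**
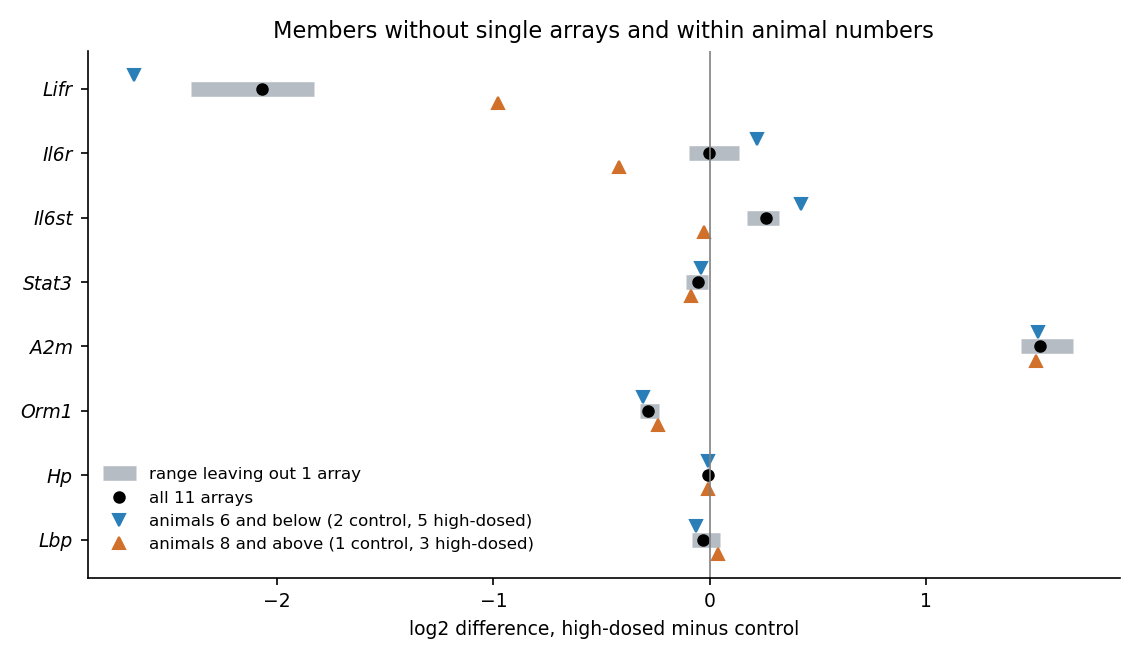
Log2 difference, high-dosed minus control (horizontal axis), of each member tested (vertical axis), with a black point for all 11 arrays, a grey bar for the range when 1 array is left out, and triangles for animal numbers 6 and below and 8 and above. The triangles lie far apart for Lifr (-2.66 and -0.98), Il6r and Il6st and close together for A2m (1.52 and 1.51) and Orm1.

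Relations between members within the high-dosed group do not use the contrast that chose them. Over 8 animals, 0 of 36 pairs passed after adjustment by Pearson's r or by Spearman's rho (exact two-sided permutation tests), and 4 and 3 pairs had an unadjusted p below 0.05. Lifr and Il6r ran opposite, with r = -0.81 (exact permutation p = 0.0173, adjusted p = 0.311) and rho = -0.86 (exact permutation p = 0.0107, adjusted p = 0.277). Without animals 10 and 11, the highest for Lifr, r was -0.71. A2m and Hp ran together, with r = 0.81 (exact permutation p = 0.0152, adjusted p = 0.311) and rho = 0.67 (exact permutation p = 0.0831, adjusted p = 0.332), and r was 0.81 again without animals 3 and 5. Hp varied little, from 25185 to 26410 in these animals. Hp and Lbp had r = 0.73 (exact permutation p = 0.0458, adjusted p = 0.394) and rho = 0.79 (exact permutation p = 0.0279, adjusted p = 0.332). Without animals 5 and 11 that r was 0.44. Socs3, under the signal filter, was included in the pairs. Il6r and Socs3 had r = 0.65 (exact permutation p = 0.0748, adjusted p = 0.449) and rho = 0.83 (exact permutation p = 0.0154, adjusted p = 0.277). Without animals 4 and 10 their r was 0.48. Lifr and Socs3 had r = -0.69 (exact permutation p = 0.0494, adjusted p = 0.394) and rho = -0.71 (exact permutation p = 0.0576, adjusted p = 0.332). Without animals 10 and 11 their r was -0.55. Animal 5 was lowest for A2m, Hp and Lbp, and highest for Orm1.

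Among the other genes tested, those most like Lifr over the 11 arrays with group means removed were Lrp5, a Wnt co-receptor (Pearson r = 0.96), the adaptor subunit Ap1s1 (0.93) and Btrc, part of a ubiquitin ligase (0.91). Lrp5 was also lower in high-dosed animals, with a log2 difference of -0.61 ± 0.12 (SE), and those of Ap1s1 and Btrc were 0.11 and 0.15. Most like A2m were the haem oxygenase Hmox1 (0.85), Tp53inp2 (0.85) and the amino acid transporter Slc1a4 (0.85). These are the top values of a search over all genes and carry no p.

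The other genes of the pathway were taken from 9 lists by their known roles, drawn up with earlier results of these data known. Of 114 such genes tested, 7 rose and 3 fell by limma at an adjusted p below 0.05, which is 8.77% of them. Of all genes 10.6% were called, 7.91% higher and 2.74% lower, and these shares stand beside each list's count below. Of the 114 genes, 26 had an unadjusted p below 0.05. Their median log2 difference was -0.02, beside 0.02 for all genes. The count was 2 without control 1, 6 without control 2 and 5 without control 9. It was 2 among numbers 6 and below, which leaves out control 9 and 3 high-dosed animals.

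Upstream of STAT3 no listed gene passed the test. Of 7 measured cytokines of the family 4, namely Il6, Lif, Osm and Clcf1, lay under the signal filter. The other cytokines, named outside the rule, had log2 differences of -0.27 ± 0.13 for Cntf, -0.25 ± 0.13 for Ctf1 and -0.14 ± 0.13 for Il11 (SE), and did not pass. Nor did the receptor chains Il11ra1 (-0.10 ± 0.07), Lepr (-0.12 ± 0.18) and Cntfr (-0.09 ± 0.13). Of 8 other JAK and STAT genes 0 passed, and of 17 other inhibitors and adaptors 0 passed (edges -0.50 for Socs2 and 0.24 for Ptpn1, limma adjusted p = 0.446 and 0.198).

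Of 15 transcription factors and intracellular targets of STAT3, 1 rose. This was Hif1a, the oxygen-regulated transcription factor, with intensities of 2334, 2654 and 2345 in controls 1, 2 and 9 and a median of 3114 in the high-dosed animals (log2 difference 0.32 ± 0.08, SE, limma adjusted p = 0.0271). High-dosed animal 2, at 2538, lay within the control range. The C/EBP factors Cebpa (0.20 ± 0.07, SE, limma adjusted p = 0.0841), Cebpb (-0.03) and Cebpd (-0.06), named outside the rule, did not pass. The list's median was 0.07.

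On the IL-1 arm, the other cytokine route to the acute phase, 2 of 12 genes rose and 0 fell. Il1r1, the signalling IL-1 receptor, read 2183, 2807 and 2662 in controls 1, 2 and 9 and from 2940 to 4423 with a median of 3699 in high-dosed animals, without overlap (log2 difference 0.49 ± 0.12, SE, limma adjusted p = 0.0205). With its 3 probe sets averaged the value was 0.24 and was not called. Il1a, encoding IL-1 alpha, read 401, 648 and 526.3 in the controls and from 539 to 864 with a median of 789 in high-dosed animals, with overlap (0.50 ± 0.14, SE, limma adjusted p = 0.038). The list's median was -0.04.

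Among 28 other positive acute phase proteins 0 rose and 1 fell, with a list median of -0.03. The fall was that of Mbl2, a mannose-binding lectin, which read 10789, 10437 and 9973 in controls 1, 2 and 9 and at most 9628 in high-dosed animals (log2 difference -0.21 ± 0.05, SE, limma adjusted p = 0.0263). Members named outside the rule did not pass, among them the C-reactive protein Crp (-0.03 ± 0.06), the fibrinogen chains Fga (-0.02), Fgb (-0.03) and Fgg (-0.02), and Lcn2 (-0.28 ± 0.24). Whether the brightest genes of this list were too bright for a change to show was not tested.

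Of 16 negative acute phase proteins, which fall in inflammation, 1 rose and 1 fell. Apoa1, the main protein of high-density lipoprotein, rose from 13028, 15287 and 11202 in controls 1, 2 and 9 to a median of 16623 (log2 difference 0.35 ± 0.08, SE, limma adjusted p = 0.0153). High-dosed animal 11, at 15249, lay below control 2. Igf1, the growth factor, had a log2 difference of -0.13 ± 0.04 (SE, limma adjusted p = 0.0419), and albumin, Alb, stood at 0.00 ± 0.02. The mean log2 signal of Alb was 15.05 in both groups, near the highest signal on the arrays. Whether Alb was too bright for a change to show was not tested.

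Glucocorticoids act with IL-6 on rat A2m and Orm1, and whether they had a part in the differences of these members was not tested. Of 14 genes of the glucocorticoid receptor and its targets 3 rose and 1 fell, where 7.91% of all genes were called higher and 2.74% lower. The list's median was 0.01, with 8 log2 differences above 0 and 6 below. Mt2A, a metallothionein, rose 2.11-fold, from 5033, 8867 and 5532 in controls 1, 2 and 9 to between 11312 and 15792 (log2 difference 1.07 ± 0.14, SE, limma adjusted p = 0.00119). Hsd11b1, which regenerates active glucocorticoid, rose 2.16-fold with overlap, from 3277, 2030 and 1216 to a median of 4732 (1.11 ± 0.26, SE, limma adjusted p = 0.0183). The kinase Sgk1, named after its value was seen, rose (0.43 ± 0.10, SE, limma adjusted p = 0.0183). Per1, also a clock gene, fell by 0.47 ± 0.14 (limma adjusted p = 0.0465), and the receptor gene Nr3c1 (0.15 ± 0.08) and Tat (-0.35 ± 0.17) did not pass. Nor did Fkbp5 (0.45), the other metallothionein Mt1 (0.01), Tsc22d3 (-0.39) and Igfbp1 (-0.69).

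**Figure D5:**
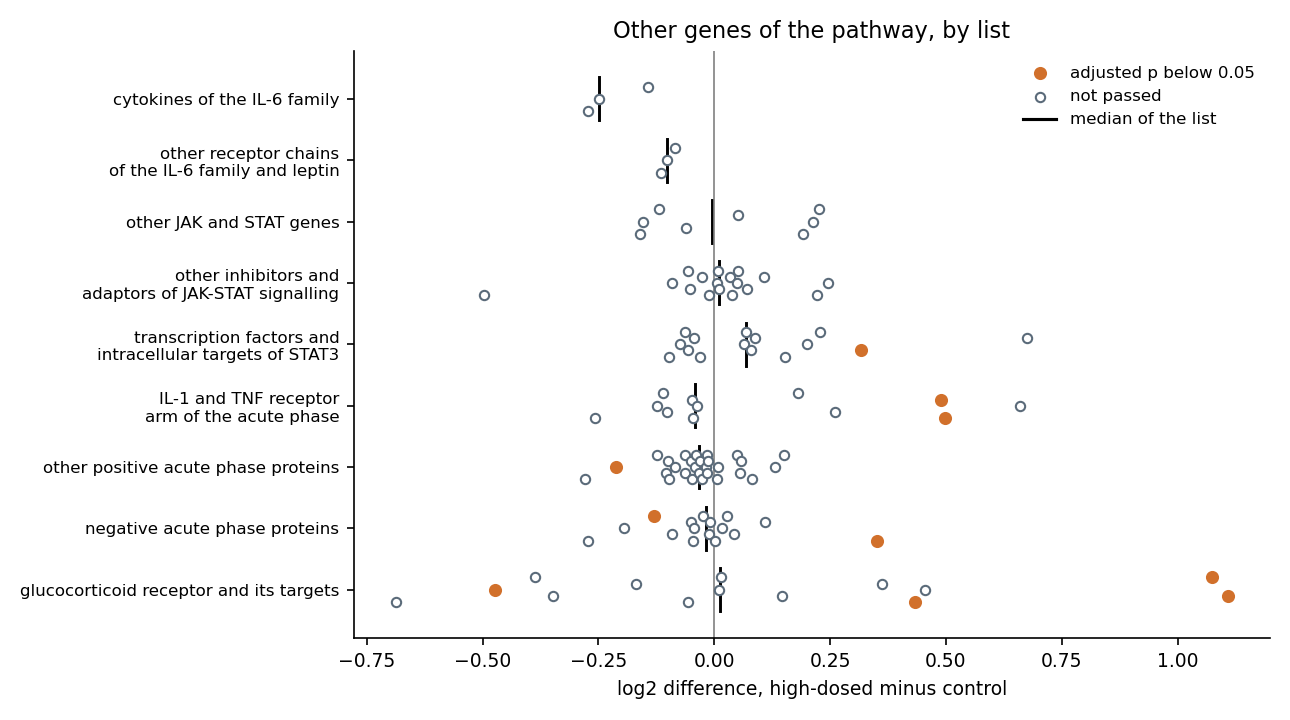
Log2 difference, high-dosed minus control (horizontal axis), of each tested gene of the 9 pathway lists (vertical axis), with filled circles for genes past an adjusted p of 0.05, open circles for the rest and a bar at the list's median. The 28 other positive acute phase proteins crowd around 0, and the largest called differences, 1.07 and 1.11, are those of Mt2A and Hsd11b1 among the glucocorticoid targets.

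Several of these calls were lost without a single control, in part with little change in the log2 difference. Hif1a, at 0.32 with all arrays, was 0.29 without control 1 and 0.29 without control 9, and lost its call in both cases. Apoa1, at 0.35, was 0.35 without control 1 and 0.24 without control 9, again without a call. Hsd11b1, at 1.11, was 1.12 without control 2 (limma adjusted p = 0.0535) and 0.76 without control 9 (limma adjusted p = 0.0812). Without control 1 the calls of Il1r1 (0.38), Sgk1 (0.30) and Il1a (0.34) were lost. Mbl2, at -0.21, lost its call in 7 of 22 alternatives, among them those without control 1 (-0.19) or control 2 (-0.21), median centring (-0.17), no intensity trend (-0.21) and the mean of its probe sets (-0.20). The calls of Il1a, Igf1 and Per1 were lost in 11, 15 and 13 of 22. Mt2A kept its call in 21 of 22 and lost it among numbers 8 and above (1.23, limma adjusted p = 0.071), where no pathway gene was called.

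Hepatocyte markers were bright in both groups, and their sum weighs the brightest most, among them Alb and Ahsg. Whether these were too bright for a change to show was not tested. The summed intensity of 13 measured hepatocyte markers ran from 243200 to 246400 in controls and from 242900 to 249800 in high-dosed animals, and 1 of them, Asgr1, fell (log2 difference -0.18, limma adjusted p = 0.0242). Markers of other liver cells stood beside the differences of the members. Of all genes 7.91% were called higher and 2.74% lower, and their median log2 difference was 0.02. That of the macrophage markers tested was 0.28 and that of the endothelial markers 0.22. The sum of 12 macrophage markers was 26850 to 36300 in controls and 35550 to 48150 in high-dosed animals, with 11 of 12 log2 differences above 0 and 1 passing. That of 10 endothelial markers was 12820 to 14640 and 14720 to 16160, with 8 of 10 above 0 and 3 passing, and that of 5 cholangiocyte markers 716.7 to 870.9 and 1064 to 1746, with Krt19, Krt7 and Cftr under the filter and 1 of the 2 tested, Epcam, passing (1.78-fold higher, limma adjusted p = 0.00544). The sum of 11 stellate markers was 11090 to 12140 and 10850 to 16020. Those of 8 lymphocyte markers (1024 to 1207 and 999.8 to 1522), 5 neutrophil markers (526.2 to 863.2 and 518.8 to 1028) and 4 erythroid markers (8849 to 13270 and 9769 to 19690) overlapped between the groups. Under the filter lay Cd3e, Cd8a, Cd79b and Ms4a1 of the lymphocyte markers and Csf3r, Cxcr2 and Camp of the neutrophil markers. Acta2 of the stellate markers and Ahsp of the erythroid markers lay under it too. The part of these cells in the differences of the members was not tested.

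Over all genes, 847 were called higher and 294 lower, and 74.2% of calls were thus higher, against 63.9% (589 and 333) after quantile normalization and 82.7% (703 and 147) after median centring. The directions of Lifr, A2m, Orm1 and Il6st were the same under both other scalings. Precision is limited by the number of arrays, 3 of them controls.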

How the data were processed

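The deposited values are probe set intensity on a linear scale from Affymetrix arrays of rat liver, 1 per animal. The tool MAS5 is named, per the submitters' processing notes, without a version or role. No source used here states the scaling between arrays or gives detection calls, and the values were used as deposited. They were transformed as log2(intensity + 55.26), the 20th percentile of all values. Affymetrix control probe sets were dropped, as were probe sets whose mean log2 signal lay below its 40th percentile (7.398). High-dosed and control animals were compared with limma 3.58.1 in R 4.3.3, with an intensity trend, two-sided, with Benjamini-Hochberg adjustment over 10714 genes, each at its brightest probe set with 1 symbol. The fit was tested on simulated data. The members and lists were chosen with earlier results of these data known. Genes named were the members, up to 2 called genes of each pathway list in each direction, and the 3 genes most like Lifr and A2m. All other genes named, markers included, stand outside this rule and were chosen after their values were seen. Alternatives were other scalings, pseudocounts, filters, variance model, probe set choice, animal numbers and each array left out. Relations between members were tested by exact permutation over the 8 high-dosed animals.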

Additional observations from a re-analysis of the deposited data

Results flagged for a closer look

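Il1a in the high-dosed group had 1 animal far from the rest. High-dosed animal 2 read 538.99, and the next lowest animal read 717. Of 24 probe sets looked at in this way 1 stood out, and chance alone marks about 1 in 20 groups.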

How the results depend on the processing

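The members' count of calls was 3 when any 1 array was left out. Il6st was called in 1 alternative, among numbers 6 and below, and Orm1 lost its call after median centring. Nothing is read from these calls of members, because the same contrast was used in choosing them. The directions of Lifr, A2m and Orm1 held in all 22 alternatives. The count over all genes was 1141, and ran from 325 (without control 1) to 1406 with 1 array left out. It was 612 among numbers 6 and below and 3 among numbers 8 and above, where fewer arrays were fitted. The count of pathway genes was 10, and ran from 2 to 13 with 1 array left out. It was 2 among numbers 6 and below and 0 among numbers 8 and above. No pair of members passed after quantile normalization or with a pseudocount of 1 either. With the range of animal numbers (6 and below, or 8 and above) as a block, 1520 genes (1082 higher, 438 lower), 14 pathway genes (10 higher, 4 lower) and 3 members were called. No paired analysis was made, because the labels give no pairing between control and high-dosed animals. Signal over background limits Socs3 and the controls of A2m.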
